A study of Mus musculus with 22 samples.

Results

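The 38 genes described here encode members of the receptor families of the transmitters glutamate and GABA. They were named as members of those 2 receptor families, with no methylation value in the rule. DNA methylation was measured by enhanced reduced representation bisulphite sequencing (ERRBS), which reads cytosine methylation in CpG-rich fragments of the genome, in mammary tissue of 22 mice. The PyMT mice were F1 females of MMTV-PyVT males and FVB females, heterozygous for the polyoma virus middle T antigen under the mouse mammary tumor virus promoter. They were taken at week 6 with hyperplasia (2 mice), week 8 with adenoma or mammary intraepithelial neoplasia (adenoma/MIN, 3 mice), week 10 with early carcinoma (3 mice) and week 12 with late carcinoma (2 mice), the stage at which most mice of this model also have lung metastasis. The labels name all PyMT samples as carcinoma, hyperplasia included. The 12 controls were FVB females, 3 at each week, with normal glands and no transgene. All samples were bulk tissue, so a larger share of cells that carry methylation and more methylation within each cell cannot be told apart. Stage and age move together in the PyMT mice, so each stage was compared with FVB mice of the same week. The model is a single transgenic line whose oncogene is driven in mammary epithelium.

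A member promoter was every CpG position within 2 kb of a curated RefSeq transcription start site (TSS) of the gene that was covered by at least 10 reads in all 22 samples. Of the 38 genes, 31 had such a position and 29 had the 3 or more that were required for a test. The 1530 member positions were part of 1140639 positions in all samples, and the 29 promoters part of 16407. Grik1, Grm3, Grm5, Gabra6, Gabrp, Gabrr2 and Gabrr3 had no position, Gabrg1 had 1 and Gabrd had 2. A promoter was called unmethylated when its mean over the 12 controls was under 10%. By this limit 25 member promoters were unmethylated, beside 12764 other promoters of the genome. Gria1, at 7.85%, was the member nearest below the limit, and Grin2d, at 10.2%, the nearest above it. The mean coverage of a sample was 60.2 to 79.2 reads per position, and that of a tested member promoter was 29.0 to 138.6 reads. Mitochondrial CpGs, which are normally unmethylated, read 0.172% to 0.277% methylated in all samples.

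Ionotropic glutamate receptors of the AMPA, kainate and NMDA classes open cation channels and excite neurons, whereas GABA-A receptors open chloride channels and inhibit them. The delta class is counted in the glutamate receptor family here. Metabotropic glutamate and GABA-B receptors act through G proteins. Many genes of this kind have CpG-rich promoters, are used in neurons and are held silent by Polycomb complexes in other tissues. The files hold methylation and no expression, so the silence of these genes in the gland was not checked here.

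Gabra5, Grm7, Gabrg3 and Gabra2 gained the most promoter methylation of the unmethylated members. A stretch of each is shown around the position outside untranslated exons that gained most at late carcinoma, read along the gene's strand from GRCm38 (the RefSeq assembly that mm10 corresponds to), with the CpGs measured in all samples in capitals. Gabra5 (chr7:57508951-57509150, minus strand) lies in an intron 875 to 981 bp downstream of a TSS at its measured positions. Grm7 (chr6:110645868-110646060, plus strand) lies in the first coding exon. Gabrg3 (chr7:57386636-57386773, minus strand) spans the end of a coding exon and the start of the next intron. Gabra2 (chr5:71095850-71096019, minus strand) lies directly upstream of the TSS.
Gabra5: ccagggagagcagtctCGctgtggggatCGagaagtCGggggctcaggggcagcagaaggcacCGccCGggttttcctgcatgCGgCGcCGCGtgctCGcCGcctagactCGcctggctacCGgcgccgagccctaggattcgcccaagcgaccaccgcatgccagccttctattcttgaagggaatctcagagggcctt
Grm7: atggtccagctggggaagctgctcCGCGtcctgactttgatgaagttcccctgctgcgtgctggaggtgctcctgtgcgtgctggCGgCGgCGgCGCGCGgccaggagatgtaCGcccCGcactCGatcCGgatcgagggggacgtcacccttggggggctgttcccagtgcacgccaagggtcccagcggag
Gabrg3: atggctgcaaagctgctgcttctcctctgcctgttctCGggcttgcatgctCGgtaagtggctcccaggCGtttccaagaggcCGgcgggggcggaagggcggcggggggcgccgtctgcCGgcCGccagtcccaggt
Gabra2: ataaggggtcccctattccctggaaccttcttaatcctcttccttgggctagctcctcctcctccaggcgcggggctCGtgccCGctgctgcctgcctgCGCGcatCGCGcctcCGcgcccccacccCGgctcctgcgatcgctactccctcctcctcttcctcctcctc

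In the Gabra5 stretch the 22 measured positions (both strands of 13 CpGs, not all on both) averaged 6.51% in week 12 controls and 18.2%, 29.0%, 31.4% and 42.2% at the PyMT stages from hyperplasia to late carcinoma. In the Grm7 stretch the 12 positions averaged 0.797% in week 12 controls and 11.6%, 14.2%, 15.9% and 24.6% at the same stages. In the Gabrg3 stretch the 7 positions averaged 2.18% in those controls and 3.47%, 7.63%, 7.20% and 14.5% in PyMT. In the Gabra2 stretch the 8 positions averaged 0.531% in those controls and 2.51%, 5.04%, 7.85% and 16.7% in PyMT. These stretches were picked by their late gain, which is therefore a description and not a test.

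Over whole promoters, some receptor genes were higher in PyMT than in FVB at hyperplasia and more at late carcinoma. Promoter means were compared on a log-odds scale with limma over all 16407 promoters, and called at an adjusted p under 0.05. At hyperplasia 9 of 29 members were higher, against 3.50% of all promoters. At adenoma/MIN 11 were higher, against 9.17% of all promoters. At early carcinoma 15 were higher, against 11.4%, and at late carcinoma 16, against 11.7%. Grin1 and Grin2d were the 2 members called lower, at every stage, against 6.29%, 8.61%, 10.9% and 9.32% of all promoters called lower at the 4 stages. Over all weeks 20 members were higher and the same 2 lower, against 16.9% and 17.2% of all promoters. The count at hyperplasia was 5 without PyMT hyperplasia replicate 1. With positions upstream of the TSS only, 20 members could be tested and 3, 6, 5 and 6 were higher, against 1.88%, 5.05%, 6.8% and 7.1% of all promoters tested that way.

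**Figure D1:**
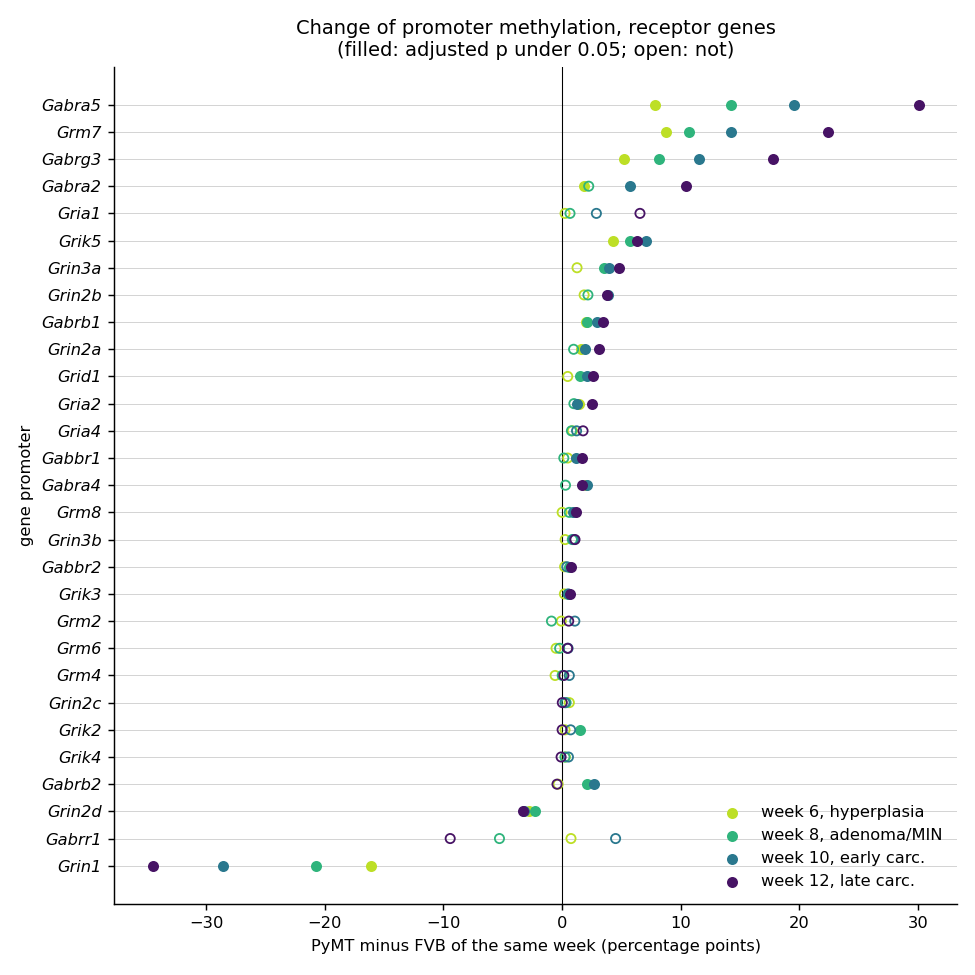
Difference of mean promoter methylation between PyMT mice and FVB mice of the same week, in percentage points, for the 29 tested receptor genes ordered by late carcinoma; colours are stages and filled points have an adjusted p under 0.05. Gabra5, Grm7, Gabrg3 and Gabra2 lie far to the right, at 30.1, 22.4, 17.8 and 10.4 points at late carcinoma, and Grin1 far to the left, at -34.5 points.

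Among promoters that were unmethylated in controls, 9, 11, 14 and 15 of the 25 receptor promoters were higher at the 4 stages in turn. The other unmethylated promoters were called higher in 3.29%, 9.24%, 11.2% and 11.9% of cases. The median difference of the receptor promoters was 0.47, 0.86, 1.27 and 1.71 percentage points, and that of the other promoters -0.04, 0.02, 0.01 and 0.00 points. The receptor promoters above the 95th percentile of the others numbered 10, 8, 9 and 8 of 25. Most receptor gains were therefore small in points and a few were large, as the late differences ran from -0.43 to 30.1 points.

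The receptor promoters were not as free of methylation in controls as most others, which bears on that comparison. Their control means ran from 0.529% to 7.85% with a median of 1.53%. Of the other unmethylated promoters, 4705 had a control mean within that range, a subset chosen after the data were seen. These were called higher in 7.25%, 19.7%, 24.2% and 25.5% of cases at the 4 stages. Their median difference was -0.07, 0.09, 0.09 and 0.14 points. The receptor promoters above the 95th percentile of this subset numbered 4, 5, 5 and 6 of 25.

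By mouse, the median over the 25 receptor promoters was 2.54% and 2.32% in the PyMT mice with hyperplasia. It was 3.24%, 3.24% and 3.46% at adenoma/MIN, 3.67%, 3.93% and 4.31% at early carcinoma, and 4.78% and 3.99% at late carcinoma. In the 12 controls it was 1.08% to 1.89%, below every PyMT mouse. The median over the other unmethylated promoters was 0.245% to 0.436% over all 22 mice, with PyMT and FVB overlapping.

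**Figure D2:**
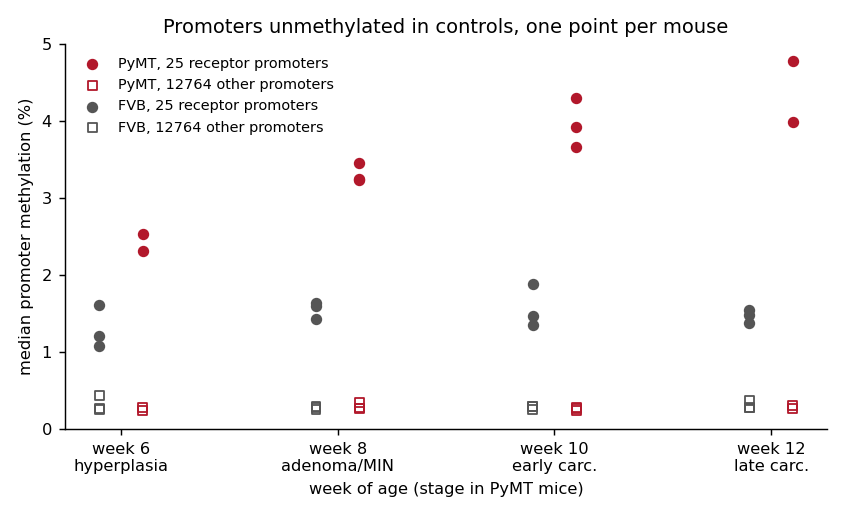
Median promoter methylation (percent) in each mouse by week of age, for the 25 receptor promoters (circles) and the 12764 other promoters (squares) that were unmethylated in controls, with PyMT in red and FVB in grey. The receptor medians of the PyMT mice, from 2.32% to 4.78%, lie above all controls, which end at 1.89%, whereas the squares lie together near the bottom.

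Of the GABA-A subunits, which assemble into the fast inhibitory channel, 6 were tested and 5, 4, 6 and 5 were higher at the 4 stages. Of all promoters 3.50%, 9.17%, 11.4% and 11.7% were higher. The median late difference of the 6 was 6.94 points. Gabra4 and Gabrb1 among them share positions, so the 6 are not separate promoters. Gabra5 (chr7:57407669-57591016, minus strand), an alpha subunit, had 127 positions. Its promoter methylation was 10.6% and 9.91% in the mice with hyperplasia, 14.1%, 14.4% and 21.9% at adenoma/MIN, 24.9%, 23.4% and 17.9% at early carcinoma, and 35.0% and 30.5% at late carcinoma. The 12 controls ran from 1.92% to 3.28% with a median of 2.57%. All 10 PyMT mice lay above all controls, and the late mice above all other PyMT mice. The differences from FVB were 7.85 ± 0.554 (SE), 14.3 ± 2.57, 19.6 ± 2.14 and 30.1 ± 2.25 points, with a limma adjusted p of 1.93e-08 at late carcinoma. This late gain ranked 10 of 12789 unmethylated promoters.

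Gabrg3 (chr7:56716463-57387215, minus strand), a gamma subunit gene that lies near Gabra5 on chromosome 7, had 52 positions. Its values were 8.30% and 5.80% at hyperplasia, 8.29%, 10.8% and 10.6% at adenoma/MIN, 15.4%, 15.1% and 10.7% at early carcinoma, and 20.4% and 19.2% at late carcinoma. The controls ran from 1.18% to 2.46% with a median of 2.05%, so that no PyMT mouse overlapped them. The late difference was 17.8 ± 0.701 points with an adjusted p of 1.84e-07. All 52 positions also lie within 2 kb of the TSS of Gm9962, so the values cannot be assigned to Gabrg3 alone.

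Gabra2 (chr5:70958392-71095849, minus strand), another alpha subunit, had 19 positions and smaller gains at the early stages. Its values were 2.52% and 3.05% at hyperplasia, 3.85%, 3.55% and 5.60% at adenoma/MIN, 7.10%, 7.41% and 6.16% at early carcinoma, and 13.6% and 9.12% at late carcinoma. The controls ran from 0.403% to 3.15% with a median of 1.29%, and the mice with hyperplasia overlapped this range while the other 8 PyMT mice lay above it. The difference was 1.83 ± 0.434 points at hyperplasia and 10.4 ± 2.24 points at late carcinoma. It passed the test at each stage but adenoma/MIN (limma adjusted p = 0.0357, 0.0531, 7.3e-05 and 8.66e-06 in stage order). The hyperplasia call was lost in the edgeR fit, with reads summed over the promoter, on the percent scale, with 500 bp on each side and without either PyMT hyperplasia mouse.

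The other GABA-A promoters moved by a few points. Gabrb1, a beta subunit, was higher at each stage, by 2.01, 2.10, 2.92 and 3.47 points. Gabra4 was higher at all stages but adenoma/MIN, with a late difference of 1.70 points, a call lost in the edgeR fit (adjusted p = 0.0986). Gabra4 and Gabrb1 are divergent neighbours on chromosome 5 and share all 14 positions of Gabra4, so their calls are not separate. Gabrb2 was higher at adenoma/MIN and early carcinoma, by 2.12 and 2.71 points, and its late difference of -0.43 points did not pass the test. Of the metabotropic GABA-B receptors, both were higher at late carcinoma, where 11.7% of all promoters were. Gabbr1 was higher by 1.71 points and Gabbr2 by 0.788 points. The call of Gabbr1 was lost in the edgeR fit (adjusted p = 0.0525) and without either PyMT late mouse, and that of Gabbr2 without PyMT late replicate 3. Gabrr1, a rho subunit known from the retina, was methylated at 4 positions in controls, at 54.2% to 71.6% with a median of 61.6%. Its PyMT values were 57.0% and 62.2%, then 63.9%, 52.4% and 65.4%, then 63.2%, 68.3% and 68.8%, and 47.8% and 56.5% at late carcinoma. They overlapped the controls, and no stage passed the test (adjusted p = 0.191 at late carcinoma by limma).

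Of the metabotropic glutamate receptors, 5 were tested and Grm7 stood far from the others. Grm7 (chr6:110645349-111567230, plus strand), a presynaptic receptor that lowers transmitter release, had 29 positions. Its values were 13.7% and 7.11% at hyperplasia, 11.9%, 12.5% and 13.0% at adenoma/MIN, 18.4%, 15.2% and 15.1% at early carcinoma, and 26.8% and 20.7% at late carcinoma. The controls ran from 1.10% to 2.57% with a median of 1.50%, and all 10 PyMT mice lay above them. The differences were 8.77 ± 3.30, 10.7 ± 0.504, 14.3 ± 1.13 and 22.4 ± 3.06 points, and the late adjusted p was 7.58e-08. Grm8, of the same presynaptic group, was higher at early and late carcinoma, by 0.904 and 1.20 points. Both calls of Grm8 were lost with 500 bp on each side. The early call was also lost in the edgeR fit and with reads summed over the promoter, and the late call without PyMT late replicate 1. Grm2, Grm4 and Grm6 were not called at any stage, with late differences of 0.559, 0.147 and 0.463 points.

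**Figure D3:**
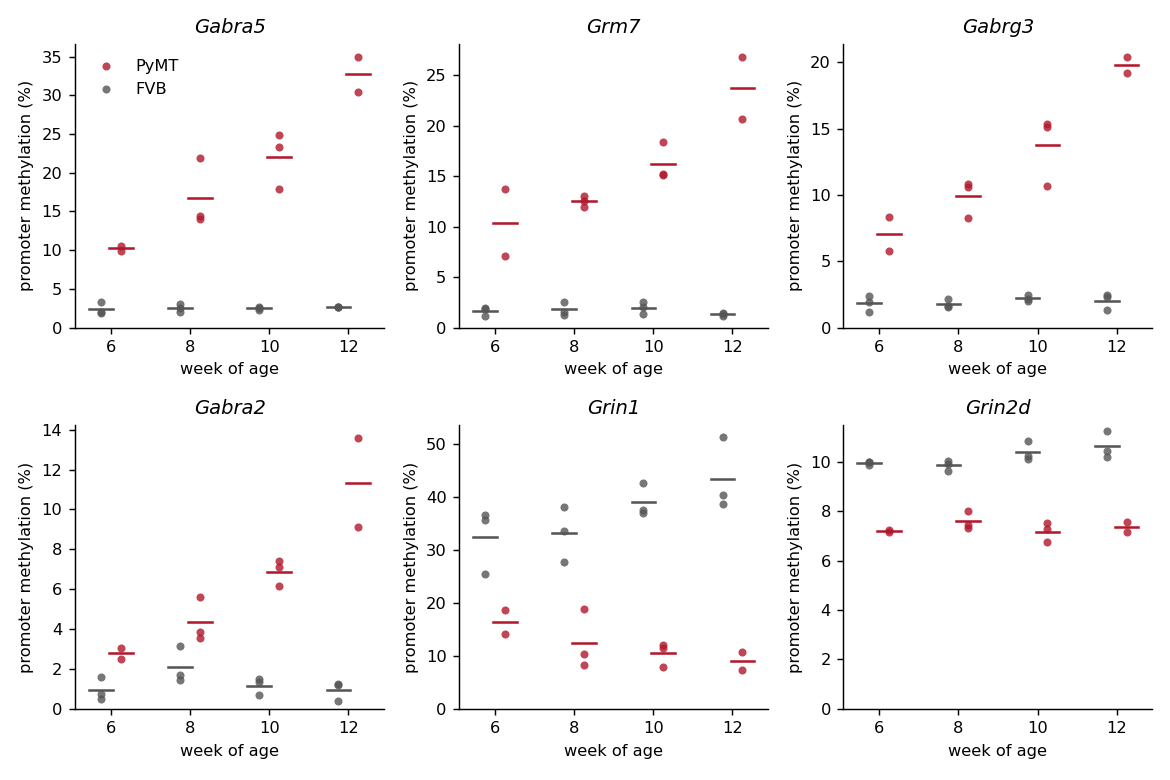
Mean promoter methylation (percent) of 6 receptor genes in each mouse by week of age, with PyMT in red, FVB in grey and group means as bars. Gabra5, Grm7 and Gabrg3 lie above all controls in each PyMT mouse, Gabra2 separates from week 8 on, and Grin1 and Grin2d lie below all controls in each PyMT mouse.

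The NMDA subunits moved in both directions. Grin3a, a glycine-binding subunit with 79 positions, read 2.12% and 3.18% at hyperplasia, 3.78%, 4.82% and 5.79% at adenoma/MIN, 4.35%, 5.74% and 7.14% at early carcinoma, and 6.92% and 6.08% at late carcinoma. Its controls ran from 0.628% to 2.27% with a median of 1.61%, which 9 of the 10 PyMT mice exceeded. The late difference was 4.78 ± 0.425 points (adjusted p = 0.00035 by limma). Grin2b, a glutamate-binding subunit with 35 positions, was partly methylated in controls, at 12.0% to 13.8% with a median of 12.2%. It read 14.8% and 13.9%, then 14.4%, 16.2% and 14.1%, then 15.1%, 17.0% and 15.9%, and 17.7% and 14.4% in the PyMT mice in stage order, each above all controls. It was called at early and late carcinoma. Both calls were lost when reads were summed over the promoter and in the edgeR fit, with a late adjusted p of 0.359 and 0.424. Grin2a was higher by 3.09 points at late carcinoma. Grin2c and Grin3b were not called at any single stage, with late differences of 0.018 and 1.09 points.

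Grin1, which encodes the obligatory NMDA subunit, fell furthest of all members. It had 3 positions, all upstream, at -1336, -1411 and -1438 bp from the TSS, so that the promoter core was not read. Its controls ran from 25.4% to 51.4% with a median of 37.2%. The PyMT values were 14.1% and 18.7% at hyperplasia, 10.3%, 18.8% and 8.32% at adenoma/MIN, 11.5%, 12.1% and 7.82% at early carcinoma, and 7.26% and 10.7% at late carcinoma, all below all controls. The difference was -16.1 ± 4.24, -20.7 ± 4.39, -28.6 ± 2.26 and -34.5 ± 4.34 points. Between the premalignant and malignant weeks the PyMT mean changed by -4.73 points and the FVB mean by 8.41 points, so more of the widening lay in the controls than in the PyMT mice. Grin2d, which encodes a glutamate-binding subunit and was read at 33 positions in coding exons and introns, had a control median of 10.1% with a range of 9.62% to 11.3%, and all 10 PyMT mice, from 6.74% to 8.01%, lay below it. Its differences were -2.75, -2.26, -3.22 and -3.27 points. The edgeR fit called Grin2d at early carcinoma only (adjusted p = 0.15 at late carcinoma), and did not call Grin1 at hyperplasia.

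In the AMPA, kainate and delta classes gains were of a few points. Grik5, a kainate subunit with 18 positions, read 9.86% and 8.96% at hyperplasia, 7.53%, 11.8% and 10.7% at adenoma/MIN, 13.0%, 12.8% and 8.53% at early carcinoma, and 12.9% and 11.0% at late carcinoma. Its controls ran from 2.93% to 6.56% with a median of 4.85%, below all 10 PyMT mice. Its differences of 4.29, 5.76, 7.10 and 6.34 points did not grow at the last stage. Gria1, an AMPA subunit with 7 positions, read 2.88% and 8.64%, then 13.4%, 10.0% and 7.41%, then 12.1%, 11.3% and 15.2%, and 12.0% and 13.7% in stage order. Its controls ran from 4.35% to 16.6% with a median of 7.06%, overlapped the PyMT mice, and its late difference of 6.56 ± 1.31 points was not called (adjusted p = 0.0908 by limma). Gria2, whose subunit sets calcium permeability, was higher by 2.48 points at late carcinoma, and the difference of Gria4, 1.77 points, was not called. Grid1, a delta subunit read at 156 positions, was higher from adenoma/MIN on, by 1.49, 2.13 and 2.58 points. Grik3 was higher by 0.525 points at adenoma/MIN and by 0.674 points at late carcinoma. Both calls of Grik3 were lost in the edgeR fit (adjusted p = 0.0746 at late carcinoma). The 3 smallest late differences were 0.002 points for Grik2, 0.018 for Grin2c and -0.08 for Grik4. Of these, Grik2 was called higher at adenoma/MIN, by 1.54 points (adjusted p = 0.00189 by limma), and over all weeks.

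Whether the PyMT difference itself changed at the malignant transition was tested by the contrast of weeks 10 and 12 with weeks 6 and 8, less the same contrast in FVB. Gabra5 and Gabra2 were the 2 members called higher, against 0.664% of all promoters, and no member was called lower, against 0.0488%. In Gabra5 the malignant weeks exceeded the premalignant by 13.9 points in PyMT and by 0.124 points in FVB (1.18 ± 0.228 log2 odds, adjusted p = 0.0273 by limma). In Gabra2 the values were 5.56 and -0.47 points (1.63 ± 0.35 log2 odds, adjusted p = 0.0411 by limma). Neither call was held by the edgeR fit (adjusted p = 0.22 and 0.43), and both were lost when any of 6 single libraries was left out.

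At single positions, differentially methylated CpGs (DMCs) were called at a q-value under 0.01 and a pooled difference of at least 10 points, by a logistic regression that takes reads as units and so does not count the spread between mice. Of the 1530 member positions, 65, 113, 167 and 224 were hyper-DMCs at the 4 stages, or 4.25%, 7.39%, 10.9% and 14.6%. Of all positions 2.62%, 3.20%, 4.39% and 4.44% were hyper-DMCs. Of the positions of other unmethylated promoters 0.415%, 0.617%, 1.02% and 1.38% were. Hypo-DMCs numbered 12, 13, 15 and 17 among the members, or 0.784%, 0.85%, 0.98% and 1.11%. They made up 6.01%, 7.10%, 8.42% and 8.53% of all positions, and 0.417%, 0.442%, 0.543% and 0.454% of the positions of other unmethylated promoters.

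These positions were held by a few genes. Gabra5, Gabrg3 and Grm7 held 208 of the member positions and 80.0%, 88.5%, 81.4% and 81.7% of the hyper-DMCs. The other 1322 member positions held 13, 13, 31 and 41, or 0.983%, 0.983%, 2.35% and 3.10%. In Gabra5 35, 74, 89 and 116 of 127 positions were hyper-DMCs, 31 of them at every stage. In Grm7 9, 12, 22 and 27 of 29 were, and in Gabrg3 8, 14, 25 and 40 of 52. When the spread between mice was estimated at each position, 33 of the 1530 member positions were hyper-DMCs at hyperplasia, against 10075 of all 1140639 positions.

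**Figure D4:**
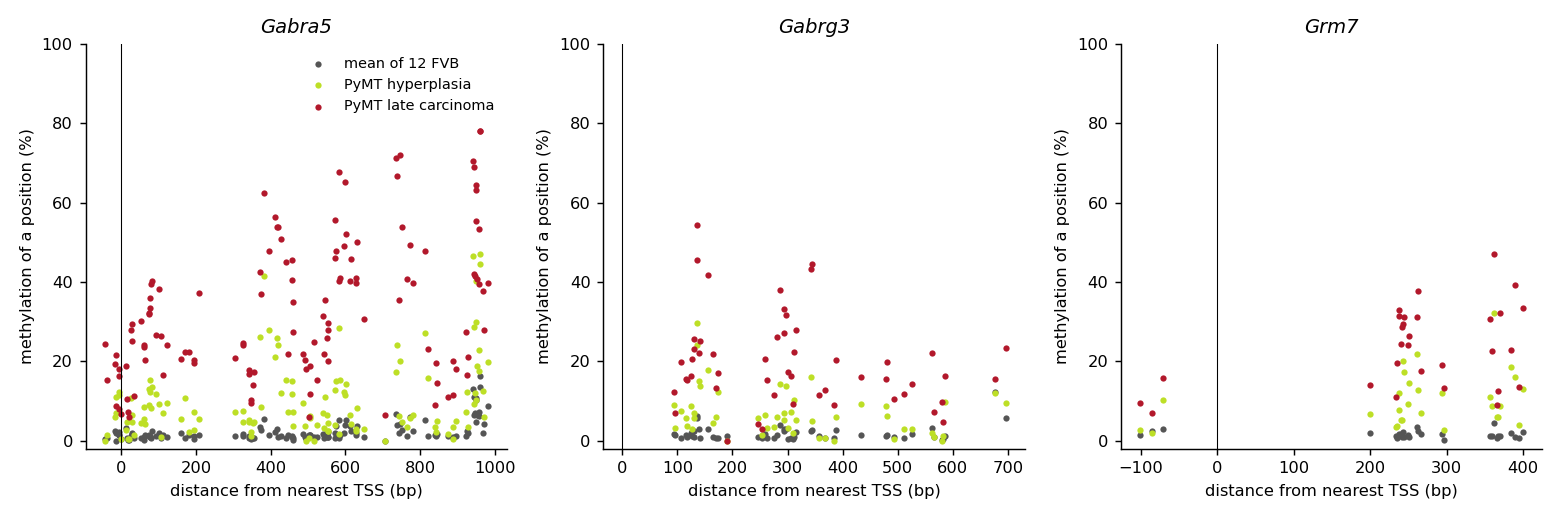
Methylation (percent) of each measured position by its distance from the nearest TSS (bp) in Gabra5, Gabrg3 and Grm7, as the mean of 12 FVB mice, of PyMT mice with hyperplasia and of PyMT mice with late carcinoma. Most measured positions and most gains lie downstream of the TSS, and neighbouring positions differ, with a highest late level of 78.1% in the first 1000 bp of Gabra5.

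Within Gabra5 the gain at late carcinoma was 11.8 points over 5 upstream positions, 22.5 points over 33 positions of untranslated exons and 33.9 points over 89 intron positions. In Grm7 the 12 coding positions gained 23.9 points and the 14 untranslated positions 24.1 points, whereas the 3 upstream positions gained 8.91 points. Gabra2 went the other way, with 16.2 points over 8 upstream positions and 7.23 points over 5 in the untranslated exon. Of 15 unmethylated members with at least 3 positions on each side within 500 bp, 12 gained more downstream than upstream (median 1.13 and 0.394 points). Among 8049 other unmethylated promoters 51.2% did.

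**Figure D5:**
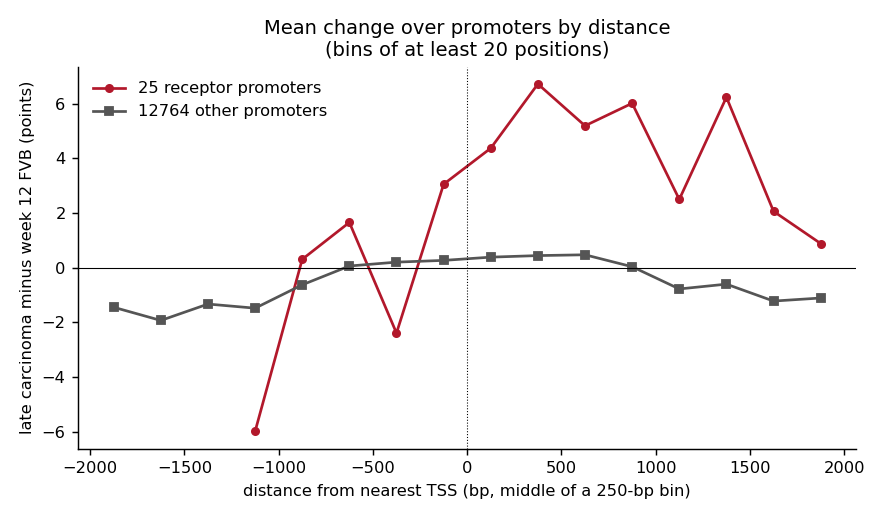
Late carcinoma minus week 12 FVB (percentage points), averaged over promoters in bins of 250 bp by distance from the nearest TSS, for the 25 receptor promoters and 12764 others; bins hold at least 20 positions. The receptor line is highest downstream, at a mean of 6.72 points in the bin from 250 bp, and the other promoters lie near 0.441 points there. The median over the 18 receptor genes of that bin was lower, at 2.48 points, and that over the other genes was 0.0 points. The low receptor values upstream rest on few genes (4 in the bin that starts at -1250 bp, 7 in that at -500 bp).

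CpG content and a motif were read from the reference. Within 500 bp of the TSS the 25 unmethylated receptor promoters had a median of 5.39 CpGs per 100 bases, with a range of 1.35 to 14.3, against 6.54 in the other unmethylated promoters. The left part of RE1, the element bound by the neuronal repressor REST, was searched as TTCAGCACC on both strands within 2 kb of each TSS. It was found at 6 of the 29 tested members (20.7%), against 6.25% of all promoters, in Gabra2, Gabra5, Grin1, Grin2a, Grin2d and Grm2. Of the 25 unmethylated members, which leave out Grin1 and Grin2d, 4 had it (16.0%), against 6.28% of the other unmethylated promoters. A match of these letters is a description and not a site.

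Genes that make, move or anchor the transmitters and their receptors were read in the same fit. Of 18 genes for transmitter synthesis and transport, 4 were higher and 1 lower at late carcinoma, where 11.7% of all promoters were higher and 9.32% lower. The vesicular glutamate transporter Slc17a6 was higher by 3.86 points and the glutamate transporter Slc1a2 by 2.84 points, while the GABA transporter Slc6a13 was at -14.7 points and Slc17a8 at -7.57 points without a call. Of 27 scaffold and auxiliary genes, 7 were higher and 3 lower, against the same shares. Shank2, a postsynaptic scaffold, gained 30.9 points and Neto1, a kainate auxiliary subunit, 4.32 points, whereas Cacng8, an AMPA auxiliary subunit, was at -14.1 points and Kctd16, a GABA-B auxiliary subunit, at -13.2 points without a call.

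Markers of the cell types of the gland moved between the groups as well. The luminal epithelial list (Krt8, Krt18, Krt19, Epcam, Cdh1, Cldn7 and Elf5) had mean promoter methylation of 3.41% to 5.50% in PyMT mice and 9.52% to 14.5% in FVB mice, with 6 of 7 genes lower at late carcinoma and all 7 over all weeks. Of all promoters 9.32% were lower at late carcinoma and 17.2% over all weeks. The adipocyte list, 4 of 6 genes, had 42.0% to 50.0% in PyMT and 50.9% to 58.8% in FVB mice. The endothelial list, 3 of 5 genes, had 31.2% to 37.0% and 31.1% to 38.8%, and the leukocyte list, 2 of 6 genes, 58.8% to 80.0% and 66.6% to 74.0%. Of the basal list only Krt5 could be read, at 54.9% to 64.4% and 56.1% to 76.7%. The part of these shifts in the receptor gains was not tested.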

How the data were processed

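ERRBS was done on mammary tissue of 10 PyMT and 12 FVB mice, which the labels name as separate replicates. The authors aligned reads with Bismark to mm10 and deposited unnormalized read counts (coverage) at single CpG cytosines, strands apart, keeping sites with 10 reads or more. In the deposited files these counts stand beside the percent of reads called methylated and unmethylated; methylated reads were recovered as coverage times percent, rounded. All 1140639 positions covered in all samples lay on a CpG of GRCm38. The paper's methods state that 2 outlier samples were removed, and these were not analysed here.

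Promoters were ±2 kb of curated RefSeq TSSs with at least 3 positions, each position weighted alike. Mean percent was fitted as log2((p + 0.5)/(100 - p + 0.5)) in limma 3.58.1 with a variance trend (R 4.3.3) over 8 groups of strain and week, with Benjamini-Hochberg adjustment over 16407 promoters. The alternative count model was the quasi-likelihood fit of edgeR 4.0.16. DMCs used a likelihood-ratio test with Benjamini-Hochberg q-values over all positions. Python 3.11.15, NumPy 2.4.6, SciPy 1.17.1 and pandas 2.3.3 were used, and the tests were tried on simulated data. ERRBS reads carry no molecular identifiers, so depth covers counting error only.

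The members, gene lists and tests were chosen with earlier results of these data known. Values in every sample were given for the 10 members with the largest absolute late change, controls being summarised over 12 mice. The genes called in the stage contrast were among them. The 3 smallest changes and the 2 largest in each direction of the lists of synthesis and transport genes and of scaffold and auxiliary genes were also named, with values for further members as counts or single differences. Sequence was shown for the 4 leading members that passed the test. A further list of receptor genes is not reported here.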

Additional observations from a re-analysis of the deposited data

Results flagged for a closer look

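The PyMT difference of 2 members was larger at the malignant than at the premalignant weeks, by the stage contrast of the limma fit. For Gabra2 the contrast was 1.63 log2 odds (adjusted p = 0.0411), and the 5 PyMT mice of weeks 10 and 12 lay above the 5 of weeks 6 and 8. For Gabra5 it was 1.18 log2 odds (adjusted p = 0.0273), with the lowest of the malignant mice, at 17.9%, below the highest of the premalignant, at 21.9%. The call of Gabra2 was lost when any of 15 single libraries was left out, and that of Gabra5 for any of 6, of 22 in each case.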

How the results depend on the processing

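Some directions changed with the choice of positions. With 500 bp on each side Grin2d, called lower in the report, was at 0.05 log2 odds at hyperplasia and 0.20 at adenoma/MIN, and Grin3b, called higher over all weeks, at -0.26. Gabbr1, called higher over all weeks, was at -0.02 with predicted transcripts. None of these 4 passed the test. Over all weeks Grin2c and Grm4, not called in the report, were called higher with 500 bp on each side and lower with upstream positions only, and Grik4 higher with 500 bp and lower with predicted transcripts. The values below moved by more than 1.5 times or by more than the spread between replicates, and except where the alternative itself tests fewer positions or genes, or sets a stricter limit, the cause was not tested.

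The count of members called lower, 2 at each stage, was 1 at hyperplasia, adenoma/MIN and late carcinoma with reads summed over the promoter. With edgeR it was 0 at hyperplasia, 1 at adenoma/MIN and 1 at late carcinoma. It was 0 at all 4 stages with 500 bp on each side and 1 at all 4 with upstream positions only, with at least 10 positions (which leaves out Grin1) and with a change of at least 5 points. With upstream positions only, the 1 at hyperplasia was Grm4, and neither Grin1 nor Grin2d was called there. With predicted transcripts it was 1 at the first 3 stages and 2 at late carcinoma, where Grik4 was called and Grin2d was not. The count of members higher was 3, 6, 5 and 6 with upstream positions only and 3, 4, 5 and 5 with a change of at least 5 points. Of the members called higher by limma, edgeR called 7, 9, 12 and 12. In the stage contrast, 2 members higher became 5 on the percent scale and 0 with reads summed, edgeR, 500 bp or upstream positions only. Alternative counts of members higher or lower in this section stand without the share of all promoters. They show how the member calls moved and not how the members compare with other promoters.

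The median difference of unmethylated members was 0.29, 1.19, 0.64 and 0.96 points with upstream positions only. It was 0.74 at hyperplasia and 1.59 at early carcinoma with a limit of 5% for unmethylated, 0.79, 1.27 and 1.83 at the first 3 stages with at least 20 reads, and 1.86 at early carcinoma with strands merged. With the spread between mice estimated, hyper-DMCs at hyperplasia were 33, against 10075 of all positions. Hypo-DMCs were then 5 at hyperplasia, 3 at adenoma/MIN and 8 at late carcinoma, against 28799, 34946 and 58580 of all positions. With a difference of at least 25 points, hyper-DMCs were 7, 27, 44 and 97 and hypo-DMCs 4, 3, 6 and 6 of 1530 member positions. Of all 1140639 positions, 9737, 11941, 17691 and 20723 were hyper-DMCs by this limit, and 32085, 35617, 46187 and 52108 hypo-DMCs. The member share of hyper-DMCs was then below that of all positions at hyperplasia and above it at the later stages.

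Replicate numbers are shared by PyMT and FVB mice of a week. Deviations from group means correlated at -0.0516 to 0.056 between same-numbered mice and at -0.0619 to 0.0721 between the others. With 2 or 3 mice in a group these deviations are tied to each other, so the values cannot decide whether the numbers mark pairs. With the replicate block, members higher were 6, 12, 12 and 12, members lower 1 at hyperplasia, the stage contrast held 0 calls, and hypo-DMCs at late carcinoma were 11.

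Leaving out each mouse in turn gave 5 to 7 members higher and 1 to 2 lower at hyperplasia, where the 5 came without PyMT hyperplasia replicate 1, and 0 to 3 in the stage contrast. Hypo-DMCs were 8 to 13 at adenoma/MIN, lowest without PyMT replicate 2, and 9 to 13 at late carcinoma, lowest without PyMT replicate 3. The medians were 0.474 to 0.80 at hyperplasia, 0.718 to 1.25 at adenoma/MIN and 1.32 to 2.01 at early carcinoma, the last without PyMT replicate 1. For the single members called at late carcinoma, 249 alternative values kept the call and 32 lost it, and for the 2 called in the stage contrast 34 kept it and 32 lost it. With upstream positions only, 12 of the 16 members called higher at late carcinoma could be tested and 6 kept the call. Positions were read at 29.0 to 138.6 reads per promoter, which limits differences of under a point in the smaller promoters.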
